A study of Homo sapiens with 17 samples.

Results

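The chaperonin CCT, also called TRiC, is built from the products of 8 genes, TCP1, CCT2, CCT3, CCT4, CCT5, CCT6A, CCT7 and CCT8. These 8 were taken by name from the 17279 genes with any count in 17 libraries of HEK293 cells, an established human embryonic kidney cell line. Ribosome footprints, pieces of mRNA kept from nuclease digestion by the ribosome on them, and mRNA were sequenced in 8 and 9 libraries, 36 or 72 h after Cas9 or dCas9 had been electroporated in complex with the sgIntron guide. This guide directs the nuclease to intron 12 of JAK2, and dCas9 carries the same guide to the site without cutting. All groups were therefore electroporated, received a Cas9 protein and carried the guide, with 300 pmol of each named for these libraries, whereas the study's methods also describe a smaller amount. The 36 h groups held 2 Cas9 (a, c) and 2 dCas9 (d, e) footprint libraries, with 3 Cas9 (a, b, c) and 2 dCas9 (d, e) mRNA libraries. The groups of 72 h held 2 libraries each, lettered e and f for footprints but a and b for mRNA with either nuclease. Each replicate pooled several electroporations in 1 plate, the guides were synthetic at 36 h and transcribed in vitro at 72 h, and the reads of the time points were aligned with different programs and annotations, so that time, guide source and processing cannot be told apart.

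CCT is a cylinder of a pair of back-to-back rings, and each ring holds 1 copy of each of the 8 subunits in a fixed order. It folds newly made proteins inside its cavity at the cost of ATP, above all actin and tubulin, and also WD40-repeat proteins such as CDC20, the G protein subunit GNB1 and MLST8. The subunits are paralogs with a shared fold: CCT2, CCT4 and CCT5 bind ATP more tightly than CCT3, CCT6A and CCT8. Prefoldin hands unfolded actin and tubulin to CCT, and phosducin-like proteins act with it as cofactors.

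The 8 genes lie on 7 chromosomes in GRCh38 (GENCODE release 44), with only CCT4 and CCT7 sharing one. TCP1 spans chr6:159778498-159789703 on the minus strand, CCT2 chr12:69585426-69601570 on the plus strand, CCT3 chr1:156308968-156367873 on the minus strand and CCT4 chr2:61868085-61888671 on the minus strand. CCT5 spans chr5:10249929-10266389 on the plus strand, CCT6A chr7:56051685-56063989 on the plus strand, CCT7 chr2:73233420-73253021 on the plus strand and CCT8 chr21:29055805-29073797 on the minus strand. Their proteins are close in length, from 531 residues (CCT6A) to 556 (TCP1), so the scaling per codon changes their levels little relative to each other. At each time point the transcript with the highest summed count was kept for each gene, and it was the same transcript at 36 and 72 h for all 8. Because footprints report translation, the bases around each start codon are shown from the kept transcripts of GENCODE release 44, with the start codon in capitals and 12 coding-strand bases before it.
TCP1: gctgccgtcaagATGgaggggcct
CCT2: ctcctcggaaccATGgcgtccctt
CCT3: catcgcgtcgccATGatgggccat
CCT4: gcggagtttgccATGcccgagaat
CCT5: ggttgttgcaccATGgcgtccatg
CCT6A: gctggagcagctATGgcggcggtg
CCT7: taagcttccaaaATGatgcccaca
CCT8: tgcaggctggccATGgcgcttcac
All 8 have A or G at the third base before the start codon, 4 of them A, and 5 have G as the first base after it, which are the bases of the textbook initiation context. TCP1, CCT2, CCT5, CCT6A and CCT8 have both, and CCT3, CCT4 and CCT7 lack the G.

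Depth ran from 689636 to 4868580 counts in the footprint libraries of 36 h, from 3183555 to 8864461 in those of 72 h and from 25095505 to 42825667 in mRNA. Of the markers listed for HEK293, VIM (571 to 1018 CPM in mRNA), KRT18 and NEFL were present and NEFM and KRT8 were low. PAX2, a kidney transcription factor, lay at or below 0.30 CPM in every mRNA library and was absent in that sense. The listed blood cell genes had at most 22 mRNA counts in any library (PTPRC). JAK2 mRNA, the guide's target, lay between 4.13 and 10.6 CPM and was below the count minimum of the tests. Its intronic cut site is outside the counted coding region, so JAK2 counts do not check the labels.

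All 8 subunits were among the more abundant genes and passed the count minimum, a mean of at least 20 counts in both library types, at both time points. Levels are given as CPM, counts scaled to a common library size by the library total and the TMM factor, and, where genes are compared, as CPM per 1000 codons of the counted coding part. In mRNA each subunit exceeded at least 91.2% of the tested genes on that scale, the lowest being CCT8 at 36 h, and in footprints at least 90.6%. Summed over the subunits, they took 0.667% to 0.819% of the normalized mRNA counts and 0.683% to 0.742% of the normalized footprint counts of a library. CCT6B, the paralog of CCT6A known from testis, had at most 1.17 CPM at 36 h and 2.41 CPM at 72 h in mRNA and was not tested.

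The subunits were not equal in footprints per codon, although the complex holds them in equal numbers. At 72 h the means over 4 libraries fell from 2715 CPM per 1000 codons for CCT5 through 2562 for CCT3 and 2377 for CCT7 to 1565 for CCT4 and 1481 for TCP1. CCT2 followed with 1159.6, CCT6A with 1076 and CCT8 with 908. Every neighbour in this order stood above the next in 4 of 4 libraries, so the order was the same in all of them, although several steps were small (1.06-fold from CCT5 to CCT3). CCT5, CCT3 and CCT7 thus formed an upper group that was 1.52-fold above the next subunit. Between the highest and the lowest subunit the fold was 2.82 to 3.19 in the libraries of 72 h.

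At 36 h the footprint range was wider, from 3185 CPM per 1000 codons for CCT5 to 671 for CCT8, and the highest subunit was 4.14- to 5.61-fold above the lowest in the 4 libraries. CCT7 (2674) stood above CCT3 (2304) in 4 of 4 libraries, the opposite of 72 h. TCP1 (1314) and CCT4 (1291) differed by less than their spread, with TCP1 higher in 2 of 4 libraries, and CCT2 (1157) exceeded CCT6A (1062) in 3 of 4. The dCas9 footprint library e and the Cas9 footprint library a were the shallowest, and CCT8 had 254 and 262 counts there.

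In mRNA CCT5 and CCT3 also led, and TCP1 stood higher than in footprints. At 72 h CCT5 had 3098 CPM per 1000 codons, CCT3 2581, TCP1 2326, CCT7 2076, CCT4 1412, CCT2 1104, CCT6A 957 and CCT8 789.6, as means of 4 libraries. Neighbours stood in this order in 4 of 4 libraries except TCP1 and CCT7, which did in 3 of 4. At 36 h the order was CCT5, CCT3, CCT7, TCP1, CCT4, CCT2, CCT6A and CCT8, with 2718 for CCT5 and 571 for CCT8. There, CCT5 was above CCT3 in 4 of 5 libraries and CCT7 above TCP1 in 4 of 5, and the other neighbours were in order in all 5. CCT8 was therefore the lowest subunit in both measures and at both time points, and CCT5 the highest on average.

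**Figure D1:**
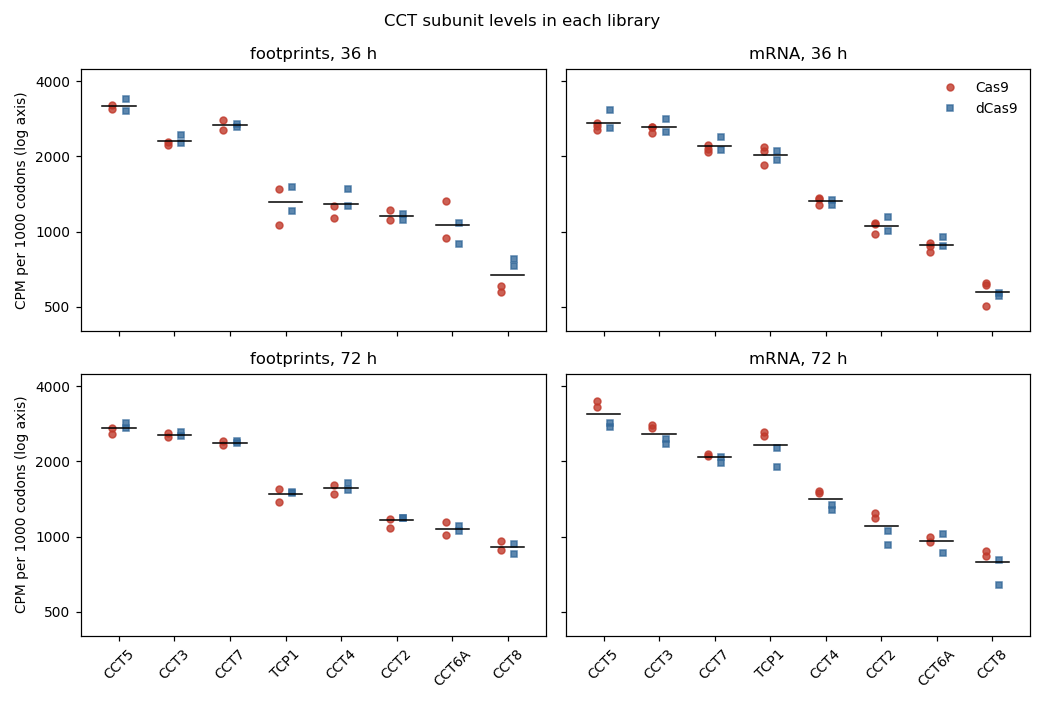
Levels of the 8 CCT subunits in CPM per 1000 codons (log axis), in footprints (left) and mRNA (right) at 36 h (top) and 72 h (bottom). Each point is 1 library, circles are Cas9, squares are dCas9 and bars are means over all libraries of the panel; CCT5, CCT3 and CCT7 lead in footprints, and CCT8 is lowest in each panel.

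Copies from other loci could touch these counts. GENCODE release 44 names pseudogenes for 7 of the 8 subunits, 4 of them for CCT6A and none for CCT2, and reads could be split or shared between gene and copy in the authors' alignment, which was not examined. TCP1 overlaps ACAT2 and CCT3 overlaps TSACC on opposite strands, and whether the counting used strand is not given in the sources used here.

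TCP1 stood apart in footprints per mRNA. This ratio divides the footprint CPM by the mRNA CPM of the same gene. At 36 h the mRNA library of the same letter was used, on the assumption that a letter is a lysate. At 72 h it was the mean mRNA of the same nuclease. For TCP1 it was 0.575 (Cas9 a), 0.705 (Cas9 c), 0.778 (dCas9 d) and 0.575 (dCas9 e) at 36 h. At 72 h it was 0.605 (Cas9 e), 0.534 (Cas9 f), 0.725 (dCas9 e) and 0.716 (dCas9 f). All of these lay below the lowest value of any other subunit at the same time point, 0.848 (CCT3) at 36 h and 0.756 (CCT5) at 72 h. At 72 h the values of a nuclease share an mRNA mean and are not independent. Over the libraries of both nucleases, so that the SD includes any nuclease difference, the mean ratio of TCP1 was 0.658 ± 0.101 (SD, n = 4) at 36 h and 0.645 ± 0.0922 (SD, n = 4) at 72 h, against a median over all tested genes of 0.986 and 0.953. It exceeded 23.7% of the tested genes at 36 h and 25.8% at 72 h, so that it was low beside its partners and less so beside all genes.

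The other 7 subunits had mean ratios between 0.872 (CCT3) and 1.21 (CCT6A) at 36 h and between 0.887 (CCT5) and 1.16 (CCT8) at 72 h. At 36 h their values from single footprint libraries overlapped widely except for CCT3, and CCT6A alone ran from 0.936 to 1.53. At that time point CCT3 (0.848 to 0.905) was below the minima of CCT2 (0.969), CCT5 (1.12), CCT6A (0.936), CCT7 (1.13) and CCT8 (0.989). It overlapped CCT4, whose minimum was 0.894. At 72 h CCT3 (0.905 to 1.09) overlapped CCT2, CCT4, CCT5, CCT6A and CCT8 and lay narrowly below CCT7. CCT5 had 1.17 at 36 h and 0.887 at 72 h, and its ranges (1.12 to 1.26 and 0.756 to 1.02) did not overlap. How many of all tested genes were without such overlap was not counted. The mRNA value divided by was also taken differently at 36 and 72 h, and time cannot be told apart from guide source, aligner and annotation.

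**Figure D2:**
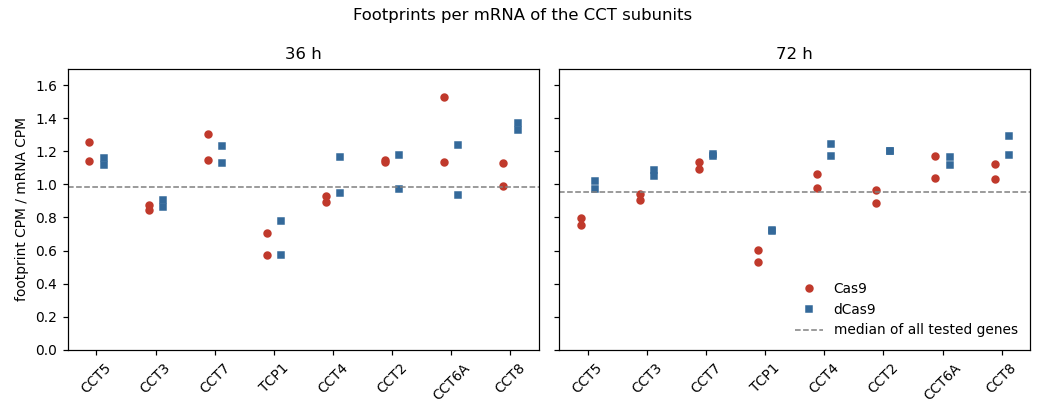
Footprint CPM divided by mRNA CPM for each CCT subunit at 36 h (left) and 72 h (right), with 1 point for each footprint library, circles for Cas9, squares for dCas9 and a dashed line at the median ratio of all tested genes. TCP1 lies between 0.534 and 0.778, below every point of the other 7 subunits at the same time point.

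In the libraries of 72 h, the mRNA of all 8 subunits had a higher estimate with Cas9 than with dCas9, as 52.8% of all tested genes had, and CCT5, CCT2 and TCP1 passed the false discovery rate of 0.1. CCT5, a subunit with tight ATP binding, had 1829 and 1718 CPM in the Cas9 libraries and 1438 and 1484 CPM in the dCas9 libraries. Its log2 fold change was 0.28 (edgeR adjusted p = 0.0615, SE 0.078), a 1.21-fold difference. CCT2 mRNA was 641 and 615 CPM with Cas9 and 478 and 544 CPM with dCas9, a log2 fold change of 0.30 (edgeR adjusted p = 0.0862, SE 0.090). For both genes every Cas9 library lay above every dCas9 library, and the dCas9 library a was the lowest.

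TCP1 mRNA was 1402 and 1361 CPM with Cas9 and 1016 and 1217 CPM with dCas9. The log2 fold change was 0.31 (edgeR adjusted p = 0.0942, SE 0.095), the largest of the 8 and 1.24-fold. The dCas9 library a was again the lowest, and the SD was 142 CPM over the dCas9 libraries and 29.5 CPM over the Cas9 libraries. The background matters here: 5.63% of the 10896 tested genes passed the same test in either direction and 0.422% passed as higher with Cas9, and 3 of the 8 subunits did.

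CCT3, CCT4 and CCT8 did not pass after adjustment, although each had an unadjusted p under 0.05, as 17% of all tested genes did. CCT3 had 1466 and 1436 CPM with Cas9 against 1294 and 1236 CPM with dCas9, a log2 fold change of 0.20 (edgeR adjusted p = 0.197, SE 0.077). CCT4 had 794 and 778 CPM against 667 and 698 CPM, a log2 fold change of 0.20 (edgeR adjusted p = 0.222, SE 0.083). CCT8 had 463 and 443 CPM against 339 and 426 CPM, a log2 fold change of 0.24 (edgeR adjusted p = 0.258, SE 0.11). In all of these the libraries of the nucleases did not overlap.

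CCT7 and CCT6A, the neighbours of CCT8 in the ring, had the smallest estimates. CCT7 had 1103 and 1122 CPM with Cas9 and 1096 and 1030 CPM with dCas9, a log2 fold change of 0.07 (edgeR adjusted p = 0.697, SE 0.078). CCT6A had 487 and 508 CPM with Cas9 and 441 and 524 CPM with dCas9, a log2 fold change of 0.04 (edgeR adjusted p = 0.847, SE 0.098), and its groups overlapped. In all, 7 of the 8 subunits had every Cas9 mRNA library above every dCas9 library, as 23.8% of all tested genes had. The median log2 fold change was 0.22 over the 8 subunits and 0.017 over all tested genes.

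These calls were close to the threshold. With mRNA fitted without the footprint libraries no subunit passed, and over all genes 3 were called higher and 290 lower. With each mRNA library left out, the log2 fold change ranged from 0.22 to 0.30 for CCT5, from 0.22 to 0.34 for CCT2 and from 0.20 to 0.39 for TCP1. The median of the subunits then ranged from 0.19 to 0.22. Over all genes, the GC content of the coding region and the mRNA fold change of 72 h were rank-correlated at -0.41, and the subunits range from 41.7% (CCT8) to 51.5% GC (CCT7), all below the median gene (51.7%). With this dependence removed, the median of the subunits was 0.13, CCT2, CCT3 and CCT5 passed, the estimate of CCT6A was -0.04, and over all genes 462 were called higher and 1182 lower in place of 46 and 567.

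Footprints at 72 h did not show this direction. For CCT5 they were 1418 and 1341 CPM with Cas9 and 1488 and 1422 CPM with dCas9, and for CCT2 609 and 558 CPM against 614 and 613 CPM, so in both the Cas9 libraries were the lower ones without overlap, as in 15.8% of tested genes. The log2 fold changes were -0.08 (SE 0.079) and -0.07 (SE 0.092). For TCP1 the footprints were 835 and 737 CPM with Cas9 and 809.6 and 799 CPM with dCas9, overlapping, with a log2 fold change of -0.03 (SE 0.096). The other 5 had log2 fold changes between -0.04 (CCT4) and 0.04 (CCT8), each with overlapping groups. No subunit passed (smallest adjusted p = 1.00 by the quasi-likelihood test of edgeR), as none of the 10896 genes did (0%). DESeq2 also called 0 genes, and 396 genes but none of the 8 subunits had an unadjusted p under 0.05 in edgeR's test. The Cas9 library f was below the mean of the 4 footprint libraries for 8 of 8 subunits and the Cas9 library e above it for 8 of 8. The median over the subunits was -0.02, it was 0.02 without Cas9 f, and it was -0.09 with 8 of 8 below 0 without Cas9 e.

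**Figure D3:**
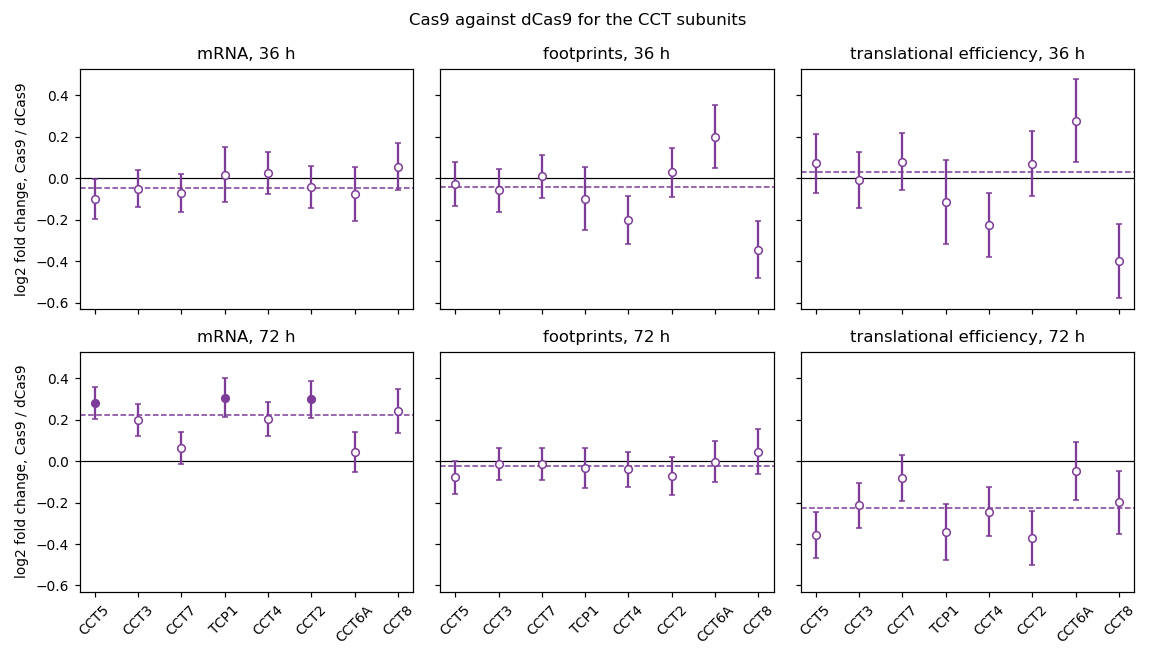
Log2 fold changes of Cas9 against dCas9 for the 8 subunits in mRNA, footprints and translational efficiency at 36 h (top) and 72 h (bottom), with bars of 1 standard error, filled points past the false discovery rate of 0.1 and a dashed line at the median of the 8. In mRNA at 72 h all 8 points are above 0 and 3 are filled, while in footprints at 72 h they lie between -0.08 and 0.04.

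Translational efficiency was tested as the footprint log2 fold change less the mRNA one. At 72 h all 8 estimates were below 0, as were those of 49.9% of all tested genes, with a median of -0.23 against 0.0010 over all tested genes, and none passed the false discovery rate of 0.1. Over all genes 0.716% passed in either direction and 0.0184% (2 genes) as lower with Cas9. The lowest estimates were those of CCT2 (-0.37, edgeR adjusted p = 0.279, SE 0.13), CCT5 (-0.36, edgeR adjusted p = 0.226, SE 0.11) and TCP1 (-0.34, edgeR adjusted p = 0.356, SE 0.14). The mRNA of these 3 was called, and the mRNA values enter both contrasts. The ratio of CCT5 was 0.799 and 0.756 with Cas9 and 1.02 and 0.973 with dCas9. CCT7 (-0.08) and CCT6A (-0.05) were nearest 0. With the GC dependence removed, the median of the subunits was nearer 0 at -0.16, 7 of the 8 estimates were below 0 and CCT5 passed. Over all genes 335 were called higher and 56 lower in that setting. With each library left out, the median of the subunits ranged from -0.28 to -0.18.

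At 36 h no subunit passed in footprints, mRNA or translational efficiency, and 0% of the 9016 tested genes passed in each of the 3 comparisons by edgeR's quasi-likelihood test. At an unadjusted p under 0.05 there were 862, 26 and 568 genes in these comparisons, and DESeq2 called 16 genes higher and 30 lower in footprints, 0 in mRNA and 1 in translational efficiency, none of them a subunit. The footprints of CCT8, the lowest of the subunits, were 302 and 320.1 CPM with Cas9 and 386 and 409 CPM with dCas9. This was the 1 subunit without overlap between the nucleases in footprints, as 14.1% of tested genes were in that direction. Its log2 fold change was -0.34 (edgeR adjusted p = 0.460, SE 0.14). CCT8 mRNA overlapped, with 266, 329 and 324 CPM in the Cas9 libraries and 291 and 299 CPM in the dCas9 libraries, and its estimate in translational efficiency was -0.40 (edgeR adjusted p = 0.780, SE 0.18). At 72 h CCT8 footprints were 509.6 and 467 CPM with Cas9 and 494 and 452 CPM with dCas9.

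CCT6A footprints at 36 h were 481 and 680.5 CPM with Cas9 and 554 and 456 CPM with dCas9, a log2 fold change of 0.20 (SE 0.15) that rested on the Cas9 library c and was -0.09 without it. CCT4 footprints were 590.5 and 659 CPM with Cas9 and 772 and 658 CPM with dCas9, a log2 fold change of -0.20 (SE 0.12). Both genes had overlapping libraries. The remaining 5 subunits had footprint log2 fold changes between -0.10 (TCP1) and 0.03 (CCT2). In mRNA at 36 h all 8 overlapped between the nucleases, with log2 fold changes from -0.10 (CCT5) to 0.06 (CCT8). The median over the subunits was -0.04 in footprints and -0.05 in mRNA, against 0.015 and -0.00027 over all tested genes.

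Each subunit's share of the summed CPM per 1000 codons of the 8 was compared between the dCas9 groups of the time points, where an equal share would be 12.5%. In footprints CCT5 had 23.2% at 36 h and 19.9% at 72 h, and CCT7 had 19.2% and 17.1%. CCT4 had 9.94% and 11.3%, and CCT8 5.43% and 6.39%. In these and in CCT3, which had its larger share at 72 h (18.4%), the libraries of the time points did not overlap. For TCP1, CCT2 and CCT6A they did, with 9.79% and 10.7%, 8.26% and 8.49%, and 7.12% and 7.69%. In mRNA CCT8 had 4.10% and 5.44% and CCT7 16.6% and 15.3%, in the same direction as their footprints, whereas CCT3 had 19.6% and 18.1%, in the opposite one. CCT2 had 7.88% and 7.45% in mRNA, also opposite to its footprints. In mRNA only CCT2, CCT3, CCT7 and CCT8 were without overlap. These are differences in share with 2 libraries on each side and no test. Overlap was not counted over all genes, since the share is defined only within the 8, so no background stands beside it. Time cannot be told apart from guide source, aligner and annotation.

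Within a library type and time point, the shared variation of the subunits from library to library was described by correlation. The log2 CPM of each gene was centred on its mean over the libraries of the same type and time, which leaves any difference between Cas9 and dCas9 in the values. Over the 17 libraries, the Pearson correlation of a subunit with the mean of the other 7 was 0.92 for CCT2, 0.84 for TCP1, 0.80 for CCT4, 0.64 for CCT5 and 0.59 for both CCT3 and CCT8. It was 0.35 for CCT6A and 0.12 for CCT7. The middle 90% of the other 8960 genes tested at both time points lay between -0.61 and 0.58 in correlation with the mean of all 8. Set against the mean of the same other 7, CCT5 exceeded 96.0% of these genes, CCT8 95.9%, CCT3 94.9%, CCT6A 83.2% and CCT7 62.8%. CCT2, TCP1 and CCT4 exceeded more. These values are a description, because the libraries share their preparation, depth and the nuclease difference at 72 h.

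In the 9 mRNA libraries alone all 8 correlations were positive, from 0.40 (CCT7) to 0.997 (CCT2). The middle 90% of the other genes lay between -0.82 and 0.83 there, and CCT3 (0.67), CCT6A (0.60), CCT7 and CCT8 (0.78) were within it. In the 8 footprint libraries they ran from -0.58 (CCT7) to 0.82 (TCP1), with CCT5 at -0.11, and the middle 90% of the other genes ran from -0.75 to 0.78, so that only TCP1 and CCT4 (0.79) lay outside it. The dCas9 mRNA library a at 72 h lay furthest from its peers, with a mean deviation of -0.17 on the log2 scale and 7 of 8 subunits below their means, and the Cas9 mRNA library a of that time point deviated by 0.12. At 36 h the dCas9 mRNA library d had all 8 subunits below their means and library e had 7 above, so the replicates of 1 group lay on opposite sides for most subunits.

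**Figure D4:**
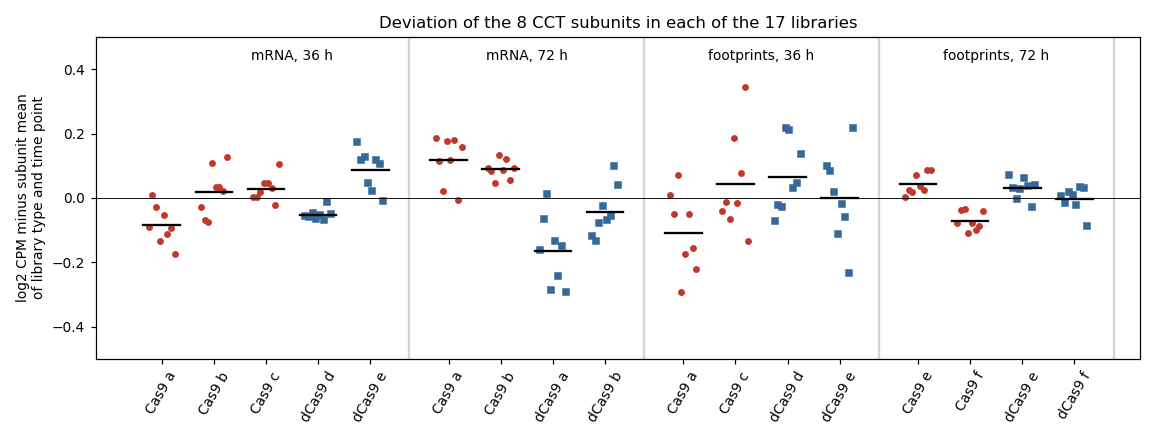
Deviation of log2 CPM of the 8 subunits from each subunit's mean over the libraries of the same type and time point, for the 17 libraries (circles Cas9, squares dCas9, black bars the mean of the 8). In mRNA at 72 h both Cas9 means are above 0 and both dCas9 means below, with means of 0.12 (Cas9 a), 0.090 (Cas9 b), -0.17 (dCas9 a) and -0.04 (dCas9 b).

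The 5 genes outside the complex whose centred log2 CPM was most like the mean of the 8 over the 17 libraries, among 8968 genes, were SET (Pearson r = 0.93), AURKA (0.93), GLO1 (0.92), SETSIP (0.92) and PPA1 (0.90). SET is a histone chaperone and phosphatase inhibitor, AURKA a mitotic kinase, GLO1 a glyoxalase and PPA1 an inorganic pyrophosphatase. SETSIP is a near-identical copy of SET, so their counts are uncertain and not independent. The list was ranked on these same libraries.

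The spread of levels within the complex was compared with that of other complexes of fixed composition. The SD over the 8 subunits of log2 CPM per codon was 0.61 in footprints at 72 h (0.58 to 0.62 over 4 libraries) and 0.73 in mRNA (0.67 to 0.78), so that footprints were the more even, without overlap. At 36 h it was 0.78 in footprints (0.70 to 0.86) and 0.82 in mRNA (0.77 to 0.86), which overlapped. All tested genes had an SD of 2.18 in footprints and 2.01 in mRNA at 72 h, so the subunits were closer to each other than genes at large. Genes at large include many of low level, whereas all 8 subunits are abundant, and genes of like abundance were not compared. The helicase MCM2-7 had 0.63 in footprints and 0.82 in mRNA at 72 h, the 14 subunits of the 20S proteasome rings 0.67 and 0.61, and the 6 prefoldin subunits 0.77 and 0.87. At 36 h MCM2-7 had 0.65 in footprints and 0.73 in mRNA, the proteasome rings 0.86 and 0.63, and prefoldin 1.28 and 1.05. The prefoldin value in footprints ran from 0.97 to 1.85 over the libraries. It was highest in dCas9 library e, where PFDN1 had 3 counts and PFDN4 12. CCT thus had a higher mean SD than MCM2-7 in both measures at 36 h and than the proteasome rings in mRNA at both time points.

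**Figure D5:**
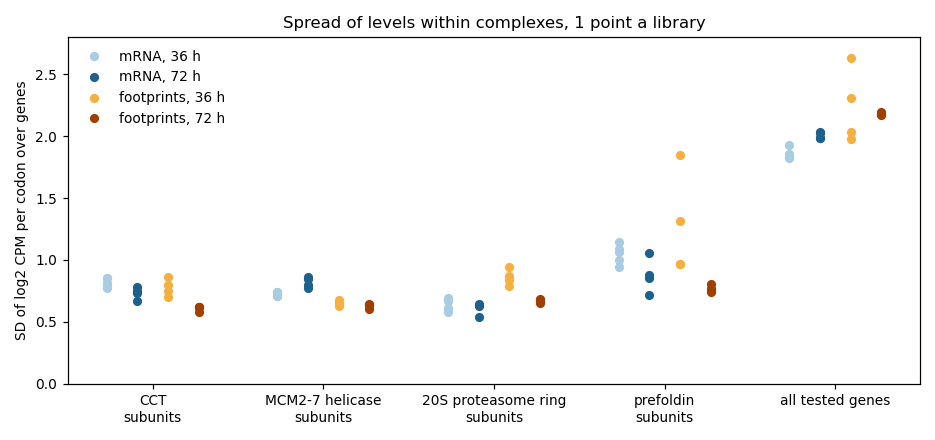
SD over genes of log2 CPM per codon within the CCT subunits, MCM2-7, the 20S proteasome rings, prefoldin and all tested genes, with 1 point for each library coloured by library type and time point. At 72 h the CCT points lie between 0.58 and 0.62 in footprints and between 0.67 and 0.78 in mRNA, and all tested genes at about 2.

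Prefoldin, which delivers clients to CCT, had 1 of 6 subunits called, against 5.63% of all tested genes in mRNA at 72 h in either direction. This was PFDN2, whose mRNA at 72 h fell by 0.63 in log2 units (edgeR adjusted p = 0.0117, SE 0.13). PFDN4 had the highest estimate, 0.53, and 4 of the 6 were above 0, with a median of 0.28. At 36 h all 6 prefoldin subunits had footprint estimates below 0, from -0.06 (PFDN5) to -0.56 (PFDN6), where 48.5% of all tested genes were below 0, with a median of -0.24 and none called, and in mRNA they ran from -0.09 (PFDN5) to 0.23 (PFDN4). Some prefoldin footprint counts at 36 h were low, down to 3 for PFDN1 (dCas9 e) and 9 for PFDN4 (Cas9 a). At 72 h the footprints ran from -0.28 (PFDN2) to 0.18 (PFDN6).

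None of the 4 cofactors PDCL, PDCL3, TXNDC9 and PDCD5 was called in any comparison. In mRNA at 72 h they ran from -0.14 (PDCL3) to 0.42 (TXNDC9), and in translational efficiency all 4 were below 0, down to -0.53 (TXNDC9). TXNDC9, a phosducin-like inhibitor of CCT, also had the lowest footprint estimate at 36 h, -0.39, and PDCL3 the highest, 0.45.

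Of 23 listed client genes 22 were tested, and 5 were called lower in mRNA at 72 h, as 5.2% of all tested genes were, and none higher. PLK1, a mitotic kinase, fell by 0.52 in log2 units (edgeR adjusted p = 0.00543) and MLST8, a subunit of the mTOR complexes, by 0.51 (adjusted p = 0.0161). GNB1 fell by 0.34 (adjusted p = 0.0971), the tubulin TUBB4B by 0.28 (adjusted p = 0.0865) and the actin ACTG1 by 0.24 (adjusted p = 0.0892). The median of the clients was -0.07 and the highest estimate 0.16 (TUBB6), so that the clients called and the subunits called went opposite ways in mRNA. The called clients have coding GC contents from 56.2% (GNB1) to 61.2% (MLST8), above those of every subunit. No client was called in footprints or translational efficiency, or at 36 h, where footprint estimates ran from -0.46 (WRAP53) to 0.51 (STAT3).

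Among the other complexes, the mRNA at 72 h of 12 of 14 subunits of the 20S proteasome rings had an estimate above 0, with a median of 0.22 that equals that of CCT to 2 decimals. PSMB1 rose by 0.46 (adjusted p = 0.0125 in edgeR's test) and PSMB2 fell by 0.36 (adjusted p = 0.0424). In translational efficiency 11 of the 14 were below 0 (median -0.20, none called). MCM2-7 had 4 of 6 above 0 with a median of 0.03 and a lowest estimate of -0.31 (MCM6), none called. The mitochondrial chaperonin, HSPD1 with its partner HSPE1, folds proteins in another compartment, and its mRNA estimates at 72 h were 0.02 and -0.01. These medians are a description with no test.

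As a description of the promoters, 150 bases before the RefSeq start of transcription (GRCh38.p14) were searched on both strands for CGGAAG (an ETS motif), CCAAT and GAANNTTC (a heat shock element core), of which CGGAAG and GAANNTTC can share letters; no match in the windows of the subunits overlapped another. RefSeq's table held an entry for 7 of the subunits, not for CCT6A. A subunit was counted once if any of its windows matched, and CCT2 and CCT4 have more than 1 window. The share over all promoters is by entry and not by gene. CGGAAG was found for 3 of the 7 (CCT2, CCT7 and TCP1) and in 12.5% of 35116 promoters, CCAAT for 3 (CCT2, CCT3 and CCT8) and in 23.5%, and GAANNTTC for 1 (CCT2) and in 3.26%. The GAANNTTC match is in the window of the second entry of CCT2, which lies downstream of the start codon shown above and not before it. The windows of TCP1 (chr6:159789603-159789752, minus strand) and CCT2 (chr12:69585309-69585458, plus strand) are shown as the called genes with a window upstream of the coding region, with motif matches in capitals; the entry of CCT5 starts inside its coding region.
TCP1: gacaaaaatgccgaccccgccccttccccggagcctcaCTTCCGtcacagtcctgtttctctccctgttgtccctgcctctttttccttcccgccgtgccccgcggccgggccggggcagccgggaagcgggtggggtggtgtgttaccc
CCT2: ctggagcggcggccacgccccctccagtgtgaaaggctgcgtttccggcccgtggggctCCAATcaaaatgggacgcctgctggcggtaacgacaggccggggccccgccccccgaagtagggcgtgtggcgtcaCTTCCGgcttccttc
CTTCCG is the reverse complement of CGGAAG. A match is a description of the letters only, and CCT7, whose mRNA was not called, holds CGGAAG as well.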

How the data were processed

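For alignment, the authors used hisat2 and GENCODE release 22 (36 h) or tophat and release 25 (72 h), while the submitters' processing notes name HISAT2 2.1.0. The deposited values are unnormalized counts per transcript from their program fp-count, beside the codons of the counted coding part, a length with no unit of expression (other). Here, transcripts were matched by identifier to GENCODE release 44 (25338 of 26679 listed at 36 h and 94878 of 98334 at 72 h), and 1 transcript a gene, that with most counts at a time point, was kept. A read that fits several transcripts is counted on each. The listed transcript of ACTB had no match and was not analysed here.

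Each time point was fitted in edgeR 4.0.16 (R 4.3.3) on the counts of footprint and mRNA libraries together, with a mean for each nuclease and library type, TMM normalization, the quasi-likelihood test and Benjamini-Hochberg adjustment over all tested genes at a false discovery rate of 0.1. Genes needed a mean of 20 counts in both library types, which left 9016 of 15660 genes at 36 h and 10896 of 17023 at 72 h. CPM divide by the total over tested genes times the TMM factor, and log2 CPM for spread and correlation use a prior count of 0.5. The code was tested on simulated data. Groups, letters and doses came from the labels. Footprint libraries titled rcas9 (72 h) carry the treatment label Cas9 and were grouped by it. The 36 h footprints of Cas9 replicate b are not analysed here. The replicates are biological replicates by the study's methods, and with 2 or 3 libraries a group p-values rest on few samples. Each subunit had at least 254 counts in each library, and counting error was not separated from the spread between libraries.

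The members and the gene lists were chosen with earlier results of these data known. The genes named are the 8 subunits, CCT6B, JAK2, list genes past the false discovery rate or at the top or bottom of their list in a comparison (not all of these are printed), and the 5 genes most alike. Alternatives were DESeq2 1.42.0, its size factors, other count minimums, each library type alone, replicate blocks, GC dependence removed, the transcript with most footprints, each library left out and, for the spread, a prior count of 2 and the longest transcript.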

Additional observations from a re-analysis of the deposited data

How the results depend on the processing

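The number of subunits called in mRNA at 72 h was 3 in the model of both library types, 1 with median-ratio size factors (TCP1), 1 with filterByExpr (CCT5), 0 with mRNA fitted alone and 0 with mRNA fitted alone and the GC dependence removed. It ranged from 0 to 4 with each mRNA library left out. In translational efficiency at 72 h it was 0, 1 with the GC dependence removed (CCT5), 1 when the replicate block was added to that, and 0 to 3 with each library left out. The median log2 fold change of the subunits in mRNA at 72 h was 0.22, 0.13 with the GC dependence removed, 0.13 with the block added to that and 0.11 with mRNA fitted alone and the GC dependence removed, which was chosen after seeing the data. In translational efficiency at 36 h this median ranged from -0.080 to 0.12 with each library left out. The medians and counts of the other comparisons and the spread of the subunits stayed within the replicate SD or 1.5 times under the settings run.

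At 72 h Cas9 and dCas9 libraries share letters, but deviations of same-lettered libraries had a correlation of -0.14 in mRNA and 0.011 in footprints. Those of footprint and mRNA libraries with the same letter at 36 h, assumed to share a lysate, had 0.047 (Cas9) and 0.011 (dCas9). No pairing by letter was seen in these values, but each rests on differences between 2 libraries and cannot show that none exists. With the replicate block, 3 subunits were called in mRNA at 72 h (median 0.23) and 0 in footprints and translational efficiency, and with the crossed mRNA pairing, chosen after seeing the data, also 3 in mRNA. Over all genes, 50 were called higher and 485 lower in mRNA with the block, and 324 higher and 809 lower with the crossed pairing. At 36 h the block on the letter, assumed to be the lysate, left 0 called.

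The estimate of CCT6A, close to 0, changed direction with the GC dependence removed: to -0.038 in mRNA at 72 h (-0.038 with the replicate block, -0.054 with mRNA alone), to 0.038 in translational efficiency (0.038 with the block) and to 0.00038 in footprints (0.00019 with the block, 0.0011 with footprints alone). CCT7 footprints at 36 h were -0.0011 with no count minimum, and CCT3 translational efficiency at 36 h was 0.0019 with DESeq2. With each library left out, further estimates that were not called crossed 0. In footprints at 36 h the ranges were -0.37 to 0.11 (TCP1), -0.041 to 0.087 (CCT2), -0.12 to 0.055 (CCT5), -0.088 to 0.41 (CCT6A) and -0.060 to 0.078 (CCT7). In mRNA at 36 h they were -0.036 to 0.085 (TCP1), -0.13 to 0.051 (CCT2), -0.14 to 0.038 (CCT3), -0.012 to 0.058 (CCT4), -0.21 to 0.016 (CCT5) and -0.16 to 0.016 (CCT7). In translational efficiency at 36 h they were -0.39 to 0.089 (TCP1), -0.034 to 0.16 (CCT2), -0.11 to 0.077 (CCT3), -0.054 to 0.18 (CCT5), -0.010 to 0.49 (CCT6A) and -0.017 to 0.16 (CCT7). In footprints at 72 h they were -0.13 to 0.055 (TCP1), -0.044 to 0.016 (CCT3), -0.098 to 0.017 (CCT4), -0.090 to 0.084 (CCT6A), -0.041 to 0.012 (CCT7) and -0.019 to 0.11 (CCT8). At 72 h CCT6A ranged from -0.061 to 0.12 in mRNA and -0.13 to 0.057 in translational efficiency, and CCT7 from -0.035 to 0.12 and -0.14 to 0.018. The cause of these changes was not tested. The shallowest library was a 36 h footprint library (689636 counts), and what depth limits there was not tested.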
